A study of Homo sapiens with 14 samples.

Results

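The microRNAs (miRNAs) miR-34a-5p, miR-146a-5p and miR-146b-5p, which cells are known to make under stress, were followed in extracellular vesicles (EVs), small membrane-bound particles shed into the culture medium. They are the 3 rows of these names among the 2632 mature miRNAs of a count table, and all 3 had counts: 349 of the 47091 counts in the table, where 447 miRNAs had any. They were chosen by name, for their known regulators, at a time when the counts of these libraries were already known, so their levels are given as a description. The EVs came from 14 samples of medium conditioned by epicardial cells, which form the outer layer of the heart, or by their pro-epicardial precursors. Every culture started from thawed pro-epicardial cells made from a single established line of human embryonic stem cells, hES-2. NT cells, named pro-epicardial, received no additive (3 libraries). SB cells, named mature epicardial, were kept for 8 days in 6 µM SB-431542, which blocks the TGF-β type I receptor kinase (4 libraries). TGFb cells were given TGF-β1 at 5 ng/ml during the first 4 days only (4 libraries). FGF cells were given bFGF, basic fibroblast growth factor, at 10 ng/ml over all 8 days (3 libraries). After day 4, all 4 groups were given their medium after ultrafiltration at 100 kDa to remove EVs already in it, and conditioned medium was taken on days 6 and 8, after 48 h each time. The TGFb medium was therefore conditioned after TGF-β1 had been removed. The labels do not say whether replicates were separate cultures, so p-values measure the spread between these samples, which may be technical.

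miRNAs are short RNAs that guide Argonaute proteins to messenger RNAs, mainly through the seed, bases 2 to 8 from the 5′ end. The gene of miR-34a is a direct target of the tumour suppressor p53, and miR-34a represses cell cycle and survival genes; in the heart it is known for rising with age and after injury. The gene of miR-146a is switched on by NF-κB, the transcription factor of inflammatory signalling, and miR-146a and its paralog miR-146b repress IRAK1 and TRAF6, adaptor proteins upstream of NF-κB, which closes a negative feedback loop.

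The mature sequences (RefSeq, GRCh38.p14) are shown with the seed in capitals, because the seed sets which of the members could act on the same targets.
miR-34a-5p: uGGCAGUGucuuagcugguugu
miR-146a-5p: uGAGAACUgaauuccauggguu
miR-146b-5p: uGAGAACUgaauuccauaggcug
The paralogs miR-146a-5p and miR-146b-5p share their seed. Over the first 22 bases, counted from the 5′ end of miR-146a-5p, 20 are identical, and miR-146b-5p differs by G18A and U21C and ends 1 base later. The division of reads between the 2 therefore rests on bases close to the 3′ end, and how the authors assigned such reads is not given in the sources used here. Their sum was analysed beside each of them. Among miRNAs with an entry in the sequence reference used here, others of the same seeds had no counts. They were miR-449a and miR-449b-5p for the seed of miR-34a-5p, and miR-7153-5p for that of miR-146a-5p. The relative miR-34c-5p had no entry there, so its seed was not compared. It had 12 counts in 7 libraries, so other miRNAs of a member's seed may have been detected. miR-449a and miR-449b-5p are shown because their first bases would be read by the same targets as those of miR-34a-5p.
miR-449a: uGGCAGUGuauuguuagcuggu
miR-449b-5p: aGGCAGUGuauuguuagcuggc

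The hairpins from which the members are cut show where the counted arm lies; the capitals mark it.
MIR34A: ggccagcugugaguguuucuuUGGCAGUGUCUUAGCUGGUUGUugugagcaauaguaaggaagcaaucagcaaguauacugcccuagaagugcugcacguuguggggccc
MIR146A: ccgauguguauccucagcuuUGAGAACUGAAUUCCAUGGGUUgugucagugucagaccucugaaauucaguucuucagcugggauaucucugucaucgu
MIR146B: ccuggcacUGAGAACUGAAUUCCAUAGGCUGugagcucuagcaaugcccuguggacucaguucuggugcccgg
MIR34A (chr1:9151668-9151777, minus strand) lies in exon 2 of the non-coding gene MIR34AHG. MIR146A (chr5:160485352-160485450, plus strand) lies in exon 2 of the non-coding gene MIR3142HG. MIR146B (chr10:102436512-102436584, plus strand) overlaps no other gene in GENCODE 29, and its nearest neighbour is CUEDC2, a protein-coding gene 3851 bases away. The counts came almost wholly from the 5′ arm. The opposite arms miR-34a-3p and miR-146a-3p had 0 counts in 14 libraries. The opposite arm miR-146b-3p had 7 counts, 6 in NT replicate 1 and 1 in NT replicate 3, the same 2 libraries in which miR-146b-5p had its most counts.

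The libraries were shallow and uneven, from 115 to 14862 counts. NT libraries held 1010 to 14862 counts, SB 179 to 3826, TGFb 231 to 7478 and FGF 115 to 3241. A share is the percentage of a library's counts, and a count of 0 is read as allowing up to 3 counts. Intervals of single libraries are 95% Wilson intervals and, like that allowance, cover counting error only. All groups were sequenced as mixed vesicles, so fewer vesicles from one kind of cell and less of a miRNA per vesicle cannot be told apart.

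miR-34a-5p, the p53 target, was the most abundant member, with 166 counts in 12 of 14 libraries and a mean share of 0.652% ± 0.735 (SD, n = 14). It stood highest in the vesicles of FGF-treated cells. In FGF replicate 3 it had 44 of 3241 counts, a share of 1.36% (95% interval 1.01% to 1.82%). In FGF replicate 4 it had 23 of 868 counts, or 2.65% (1.77% to 3.94%), and was the miRNA of rank 10 in that library. FGF replicate 2 had none among 115 counts, a library in which the summed share of the other FGF libraries would give 1.88 counts, and 0 there allows up to 2.61%. The shares of the 2 deeper FGF libraries were thus above those of all 11 libraries of the other groups, although the intervals of TGFb replicate 2 (0.443% to 3.75%) and SB replicate 2 (0.0987% to 3.10%) cover both and that of NT replicate 4 covers 1.36%, and FGF replicate 2 was too shallow to place.

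In NT, miR-34a-5p had 5 of 14862 counts in replicate 1, a share of 0.0336% (95% interval 0.0144% to 0.0787%). NT replicate 3 had 16 of 9462, or 0.169% (0.104% to 0.275%). NT replicate 4 had 11 of 1010, or 1.09% (0.609% to 1.94%). The 3 intervals did not overlap, so the untreated libraries differed among themselves by more than counting error. SB libraries had 0 of 345, 1 of 179, 13 of 3826 and 6 of 1286 counts in replicates 1 to 4, with shares of 0% to 0.559%. TGFb libraries had 3 of 1418, 3 of 231, 23 of 7478 and 18 of 2770 counts, with shares of 0.212%, 1.30%, 0.308% and 0.650%.

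In order, the mean share of miR-34a-5p was 1.34% ± 1.33 in FGF (SD, n = 3), 0.617% ± 0.492 in TGFb (n = 4), 0.431% ± 0.574 in NT (n = 3) and 0.341% ± 0.245 in SB (n = 4). Each neighbour in this order differed from the next by less than the larger SD of the pair. Among libraries with the same replicate number, FGF was highest in numbers 3 and 4 and TGFb in numbers 1 and 2. Number 1 held no FGF library. In number 2, the TGFb share rested on 3 of 231 counts, and 0 of 115 in FGF allows up to 2.61%. In number 3, the share was 1.36% in FGF, 0.340% in SB, 0.308% in TGFb and 0.169% in NT. In number 4, it was 2.65% in FGF, 1.09% in NT, 0.650% in TGFb and 0.467% in SB. NT was lowest in number 3 and next to FGF in number 4, so the place of the untreated cells changed between the numbers.

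**Figure D1:**
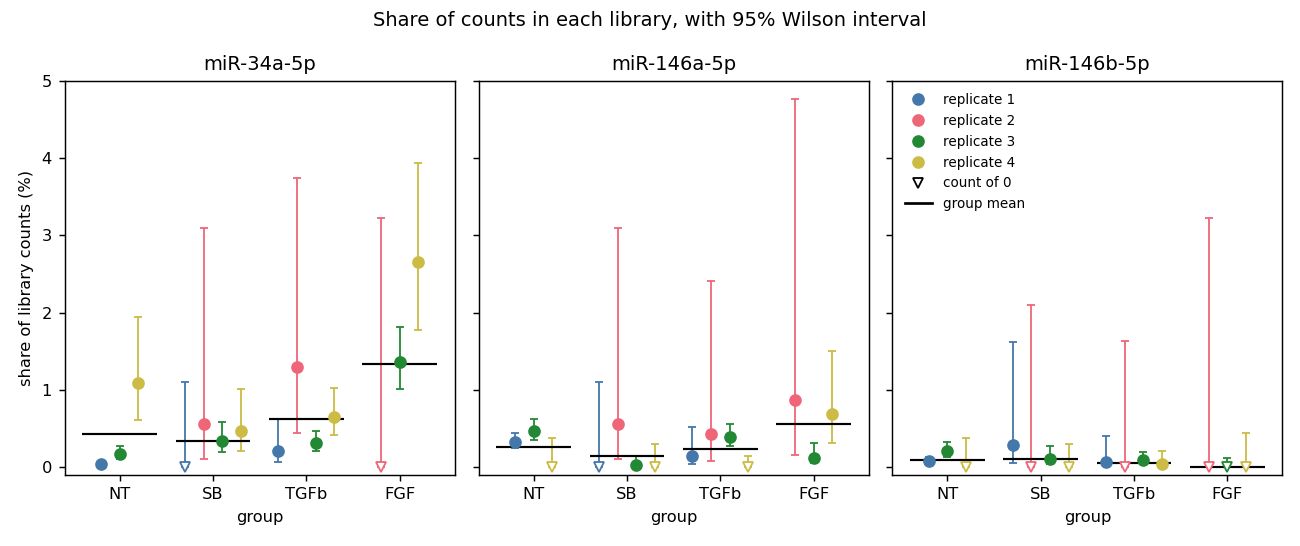
Share of each library's counts (%, vertical axis) taken by miR-34a-5p, miR-146a-5p and miR-146b-5p in the 4 groups; points are libraries coloured by replicate number, open triangles are counts of 0, bars are 95% Wilson intervals and horizontal lines are group means. The 2 highest miR-34a-5p shares are those of FGF replicates 3 and 4 (1.36% and 2.65%), and miR-146b-5p is at 0 in all 3 FGF libraries.

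The comparison of FGF with NT asked whether the relative level of miR-34a-5p among vesicle miRNAs differed with basic FGF. The counts give a level relative to the other miRNAs of a library, not an amount per vesicle. miR-34a-5p passed the filter on low counts, as 1 of the 47 miRNAs that did. Its passing rested in part on FGF replicates 3 and 4, where its share was highest. Its log2 fold change, FGF minus NT, was 1.87 (SE 1.10, 95% interval −0.39 to 4.13), and it did not pass an adjusted p of 0.05 (edgeR quasi-likelihood test, unadjusted p = 0.101, adjusted p = 0.320). Over all tested miRNAs, 2.13% passed in this comparison. The shares of the 2 groups overlapped, through FGF replicate 2 at 0 and NT replicate 4 at 1.09%; for 17% of the tested miRNAs these groups did not overlap. Without NT replicate 4, the log2 fold change was 3.13 and passed by a narrow margin (edgeR adjusted p = 0.0496), and without that library 9 of the 47 miRNAs passed. It was the shallowest NT library. In a fit of all 447 miRNAs with a count, without the filter, miR-34a-5p had 1.70 for FGF minus NT (edgeR adjusted p = 0.674). There 0.224% of miRNAs passed.

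Summed cell type markers of these 2 groups overlapped, except those listed as epicardial or mesenchymal. The 6 miRNAs listed as epicardial or mesenchymal markers summed to 8.41% to 13% in FGF and 0.0875% to 3.56% in NT. Their counts lay mainly in miR-21-5p (231 in FGF, 68 in NT), miR-143-3p (93 and 15) and miR-199a-3p (35 and 1). miR-145-5p and miR-199a-5p had 1 count each in FGF and 0 in NT, and miR-214-3p had 0 in both groups. The 7 markers of blood and immune cells, of which 3 were at 0 throughout (miR-451a, miR-144-3p and miR-150-5p), summed to 0.185% to 0.870% in FGF and 0.0202% to 0.297% in NT. Of 5 markers of pluripotent cells, 4 were at 0 in every library and miR-302a-3p had 2 counts. The 2 endothelial markers summed to 0% to 1.04% in FGF and 0.0269% to 0.0990% in NT, and the liver marker miR-122-5p had shares of 0.0309% to 0.870% in FGF and 0% to 0.396% in NT. The 6 muscle markers summed to 0% to 0.0926% in FGF and 0.0202% to 0.792% in NT: miR-1-3p had 22 counts, miR-133a-3p 12 and miR-206 4, and the heart muscle markers miR-208a-3p, miR-208b-3p and miR-499a-5p were at 0 in all 14 libraries. Of these markers, miR-21-5p, miR-143-3p, miR-126-3p and miR-122-5p entered the filtered fit. None passed for FGF against NT (edgeR adjusted p of 0.148, 0.261, 0.261 and 0.755). The part of these marker levels in the miR-34a-5p result was not tested.

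The other 5 comparisons of miR-34a-5p did not pass either. FGF minus SB was 1.95 (SE 1.06, 95% interval −0.24 to 4.13, edgeR adjusted p = 0.704), where 0% of tested miRNAs passed. TGFb minus NT was 0.70 (SE 1.05, 95% interval −1.46 to 2.86, adjusted p = 0.935; 0% passed). TGFb minus SB, the contrast of the ligand with the inhibitor of its receptor, was 0.78 (95% interval −1.34 to 2.89, adjusted p = 0.898; 0% passed). TGFb minus FGF was −1.17 (95% interval −3.24 to 0.90, adjusted p = 0.888; 0% passed). SB minus NT was −0.08 (95% interval −2.40 to 2.25, adjusted p = 0.966; 2.13% passed). Every one of these intervals included 0 and reached a log2 fold change of 2 or more in at least 1 direction, so changes of that size could not be told from none at this depth. The test over the 4 groups gave an edgeR adjusted p of 0.547 (unadjusted p = 0.221; 0% passed).

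miR-146a-5p, the NF-κB target, had 138 counts in 10 of 14 libraries and a mean share of 0.288% ± 0.289 (SD, n = 14). Most of them lay in the 3 deepest libraries. NT replicate 1 had 49 of 14862, or 0.330% (95% interval 0.249% to 0.436%). NT replicate 3 had 44 of 9462, or 0.465% (0.347% to 0.624%). TGFb replicate 3 had 29 of 7478, or 0.388% (0.270% to 0.556%). These 3 libraries had closely similar shares. NT replicate 4, in contrast, had none in 1010 counts, where the share of the other NT libraries would give 3.86 counts and 0 allows up to 0.297%. This is the NT library in which miR-34a-5p was highest.

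SB vesicles held little miR-146a-5p: 0 of 345, 1 of 179, 1 of 3826 and 0 of 1286 counts in replicates 1 to 4, or 2 of 5636 in all, against 93 of 25334 in NT. SB replicate 3, the deepest, had a share of 0.0261% (95% interval 0.00461% to 0.148%), and its interval lay below those of NT replicates 1 and 3. TGFb libraries had 2, 1, 29 and 0 counts, and TGFb replicate 4 had 0 of 2770, which allows up to 0.108%. FGF libraries had 1 of 115, 4 of 3241 and 6 of 868 counts, with shares of 0.870%, 0.123% and 0.691%. FGF had the highest mean share, 0.561% ± 0.390 (SD, n = 3), before NT with 0.265% ± 0.239 (n = 3), TGFb with 0.240% ± 0.205 (n = 4) and SB with 0.146% ± 0.275 (n = 4). Neighbours in this order differed by less than the larger SD of the pair. The SB mean rests mainly on 1 count in the shallow replicate 2.

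miR-146a-5p did not pass the filter on low counts, so it was tested in a fit of all 447 miRNAs with a count. SB minus NT gave a log2 fold change of −3.32 (SE 1.37, 95% interval −5.99 to −0.64), with an unadjusted p of 0.0152 and an edgeR adjusted p of 0.618, which did not pass. Here 0% of the 447 passed; the unadjusted p was under 0.05 for 6.94% of them, and their median log2 fold change was −0.56. Among libraries with the same number, SB was below NT in number 3. In number 1, 0 of 345 counts in SB allows a share above that of NT, and in number 4 both were at 0. The difference was −2.55 with RLE factors (unadjusted p = 0.0784), −2.50 with library size only (0.0842), −2.24 in DESeq2 (0.168) and −0.77 in the authors' adjusted table with limma (0.503), so the unadjusted p under 0.05 was lost in each. Leaving out SB replicate 3 or SB replicate 4 also lost it (0.0552 and 0.0545), and the exact permutation test of shares gave 0.657. Other settings kept it (unadjusted edgeR p). The difference was −3.37 with replicate number as a block (0.00989), −4.33 in libraries of at least 500 counts (0.00857) and −3.63 with only the groups compared (0.0143). It was −4.43 without SB replicate 2 (0.00389) and −3.86 without NT replicate 4 (0.00398). The adjusted p was 0.262 or more in every setting. TGFb minus SB was 2.66 (95% interval −0.01 to 5.33, edgeR adjusted p = 0.797; 0% passed), and FGF minus SB was 2.69 (−0.20 to 5.58, adjusted p = 0.831; 0% passed). TGFb minus NT was −0.66 (−2.67 to 1.36, adjusted p = 0.885; 0% passed).

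For FGF against NT, the fitted value and the mean shares of miR-146a-5p pointed in opposite directions. The log2 fold change was −0.63 (SE 1.19, 95% interval −2.96 to 1.70, edgeR adjusted p = 0.843; 0.224% of miRNAs passed), while the mean share was 0.561% in FGF and 0.265% in NT. The median of all 447 miRNAs in this comparison was −1.01. With RLE factors in place of TMM the value was 0.35, and with library size only 0.65, so no direction is given. FGF was above NT in number 4 (0.691% against 0%) and below it in number 3 (0.123% against 0.465%). TGFb minus FGF was −0.03 (95% interval −2.61 to 2.56). The test over the 4 groups gave an edgeR adjusted p of 0.730 (unadjusted p = 0.116; 0.224% passed).

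miR-146b-5p, the paralog with the same seed, had 45 counts in 7 of 14 libraries. None lay in an FGF library: 0 of 115, 0 of 3241 and 0 of 868 counts, which allow up to 2.61%, 0.0926% and 0.346%. NT libraries had 11 of 14862, 20 of 9462 and 0 of 1010 counts, with shares of 0.0740%, 0.211% and 0%. TGFb libraries had 1, 0, 7 and 1 counts and SB libraries 1, 0, 4 and 0 counts in replicates 1 to 4. The share of NT replicate 3 (95% interval 0.137% to 0.326%) was above what 0 of 3241 allows in FGF replicate 3, while the share of NT replicate 1 was below it, and all groups overlapped at 0. Summed over libraries, NT had 31 of 25334 counts, or 0.122%, and 3 counts over the 4224 of FGF would be 0.0710%, so by these sums miR-146b-5p was at least 1.72-fold lower in FGF. This bound rests on NT replicate 3: without it the summed NT share was 0.0693%, below what 0 allows in FGF, and no bound remains. For SB and TGFb no bound is given, since without replicate 3 their summed shares (0.0552% and 0.0453%) were also below 0.0710%. FGF against NT had an unadjusted p of 0.0081 and an edgeR adjusted p of 0.362, and did not pass; the unadjusted p was below 0.05 for 7.38% of the 447 miRNAs there. A share of this size gives few counts at the depth of the FGF libraries.

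The remaining comparisons of miR-146b-5p gave log2 fold changes of −0.99 for SB minus NT (95% interval −3.27 to 1.30, edgeR adjusted p = 0.711), −0.85 for TGFb minus NT (−2.96 to 1.27, adjusted p = 0.787) and 0.14 for TGFb minus SB (−2.15 to 2.43, adjusted p = 1). The direction of the last turned with RLE factors (−0.25) and with library size only (−0.42). FGF against SB and against TGFb had edgeR adjusted p of 0.831 and 0.855, and the test over the 4 groups 0.730 (unadjusted p = 0.0678).

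The sum of the 2 paralogs does not depend on how reads were divided between them, if each read was counted once, which is not known. It had 124 of 25334 counts in NT, 7 of 5636 in SB, 41 of 11897 in TGFb and 11 of 4224 in FGF. SB minus NT was −2.19 (SE 1.14, 95% interval −4.43 to 0.05, unadjusted p = 0.0557, edgeR adjusted p = 0.618), a smaller difference than for miR-146a-5p alone. TGFb minus SB was 1.46 (95% interval −0.75 to 3.67, adjusted p = 0.794), and the test over the 4 groups had an adjusted p of 0.728. In the fit with the sum, FGF minus NT was −1.05 (adjusted p = 0.734), and 0% of 446 miRNAs passed in SB against NT and TGFb against SB, and 0.224% over the 4 groups.

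Across the 6 pairwise comparisons, no member passed an edgeR adjusted p of 0.05 in either direction. In the fit reported here, miR-34a-5p also had no unadjusted p under 0.05. Its unadjusted edgeR p for FGF against NT was 0.0376 with replicate number as a block, 0.0338 without FGF replicate 2 and 0.00848 without NT replicate 4. For FGF against SB it was 0.0224 without FGF replicate 2 and 0.0495 without NT replicate 4. With library totals taken before the filter it was 0.0391 there. In all other settings the unadjusted p of both comparisons was 0.05 or more. Of the 47 miRNAs of the fit reported here, 12.8% had an unadjusted p under 0.05 for SB against NT, 4.26% for TGFb against NT, 17% for FGF against NT, 8.51% for TGFb against SB, 6.38% for FGF against SB, 14.9% for TGFb against FGF and 10.6% over the 4 groups. Of the 447 miRNAs of the unfiltered fit, the same order of comparisons gave 6.94%, 4.03%, 7.38%, 3.8%, 4.25%, 3.8% and 5.37%. There miR-146a-5p was below 0.05 in SB against NT, and miR-146b-5p in each comparison with FGF. The shares of the groups overlapped for every member in all 6 comparisons. In that order, groups did not overlap for 8.51%, 8.51%, 17%, 8.51%, 10.6% and 14.9% of the 47 miRNAs, and for 3.13%, 1.12%, 4.03%, 1.12%, 1.34% and 1.57% of the 447. These shares are the background against which 0 calls among the members stand.

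**Figure D2:**
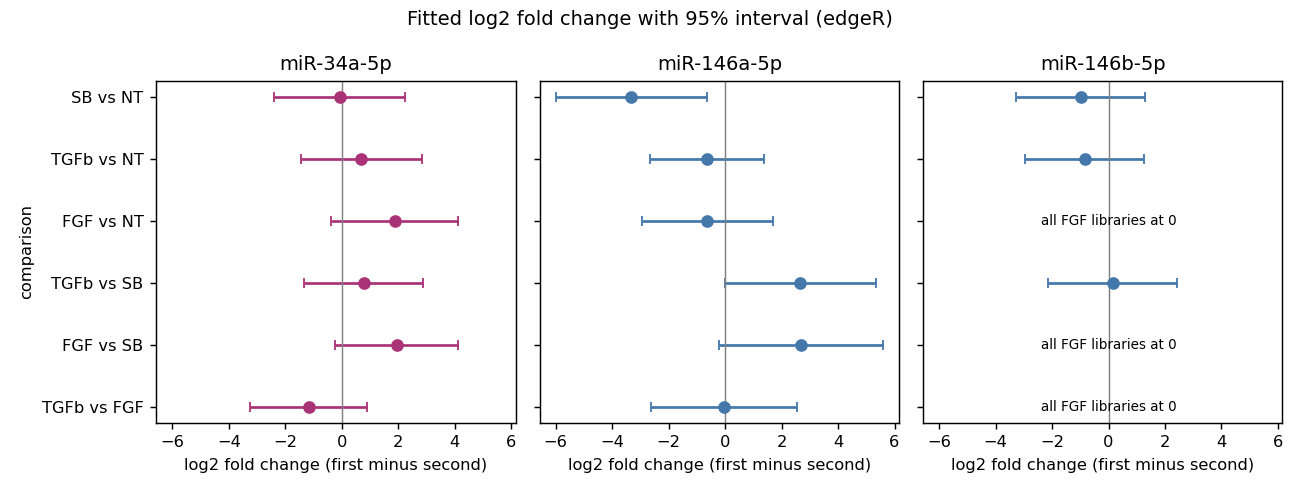
Fitted log2 fold change (horizontal axis, first group minus second) of each miRNA in the 6 pairwise comparisons (vertical axis); points are edgeR estimates and bars 95% intervals, and the 3 comparisons of miR-146b-5p with FGF are left blank because all FGF libraries are at 0. The highest miR-34a-5p values are those of FGF against SB (1.95) and against NT (1.87), with intervals that include 0, and the SB against NT value of miR-146a-5p (−3.32) has an interval below 0 but an adjusted p of 0.618.

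The make-up of the members' counts within a library needs no normalization. In NT, 32 of the 156 counts of the 3 miRNAs were miR-34a-5p, or 20.5% (95% Wilson interval 14.9% to 27.5%). The p53 target took 67 of 78 counts in FGF, or 85.9% (76.5% to 91.9%). It took 20 of 27 in SB, or 74.1% (55.3% to 86.8%), and 47 of 88 in TGFb, or 53.4% (43.1% to 63.5%). The intervals of these sums do not hold the spread between libraries, which was wide. In NT the share was 7.69%, 20% and 100% in replicates 1, 3 and 4, so the NT sum is set mainly by its 2 deepest libraries, and NT replicate 4 (11 of 11 counts) was above FGF replicates 3 and 4 (44 of 48 and 23 of 29). In number 3, the share was 91.7% in FGF, 72.2% in SB, 39.0% in TGFb and 20% in NT. In number 4, it was 100% in NT and SB, 94.7% in TGFb and 79.3% in FGF, so the order did not hold there.

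**Figure D3:**
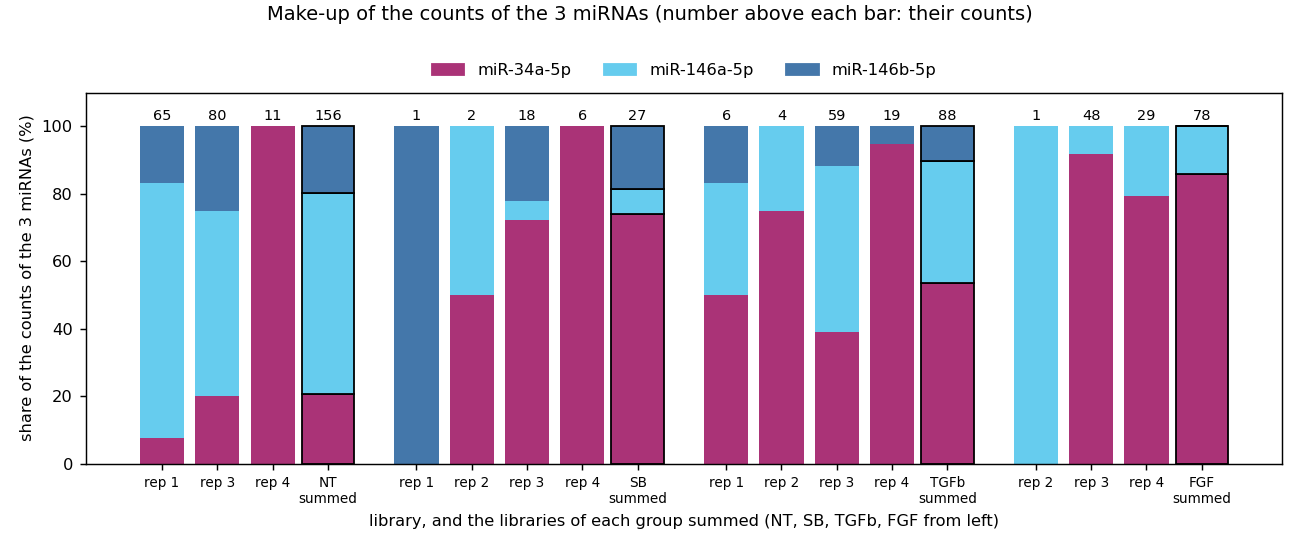
Percentage of the counts of the 3 miRNAs (vertical axis) that belong to miR-34a-5p, miR-146a-5p and miR-146b-5p, for each library and, outlined, for the summed libraries of each group; the number above each bar is the count it rests on. miR-34a-5p takes 20.5% of the summed NT counts and 85.9% of the summed FGF counts, and 100% of the 11 counts of NT replicate 4.

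Of the miR-146 counts, miR-146a-5p took 49 of 60 in NT replicate 1, or 81.7% (95% interval 70.1% to 89.4%), 44 of 64 in NT replicate 3, or 68.8% (56.6% to 78.8%), and 29 of 36 in TGFb replicate 3, or 80.6% (65.0% to 90.2%). These 3 intervals overlapped. SB replicate 3 had 1 of 5 (20%, 3.62% to 62.4%), an interval that overlaps that of NT replicate 3, and in FGF all 11 counts were miR-146a-5p (100%, 74.1% to 100%). Other libraries had 3 or fewer miR-146 counts.

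The authors also deposited an adjusted table, and the members' values differed between the tables, in several cases in the same direction in libraries that share a replicate number. miR-34a-5p went from 5 to 37 in NT replicate 1 and from 3 to 13 in TGFb replicate 1. In the 4 libraries numbered 4 it was lowered from 58 to 24 in all, while those numbered 3 had 96 before and 98 after. Of those, 2 were raised and 2 lowered. miR-146b-5p was raised in 3 libraries numbered 3, from 31 to 81 in all, and from 11 to 29 in NT replicate 1. miR-146a-5p did not move one way within number 3: it went from 44 to 31 in NT, from 29 to 20 in TGFb and from 4 to 6 in FGF and stayed at 1 in SB. In FGF replicate 4 it was raised from 6 to 18. No zero was altered.

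These changes alter the balance of the members. In NT, the raw counts of miR-146a-5p and miR-146b-5p were 93 and 31, and the adjusted values 73 and 78, so miR-146a-5p made up 75.0% of the pair before and 48.3% after. The share of miR-146a-5p in FGF replicate 4 went from 0.691% to 2.48% of that library, and FGF had a mean of 1.18% ± 1.18 (n = 3) in the adjusted table. The 3 NT libraries differed less in miR-34a-5p after adjustment, with shares of 0.247%, 0.170% and 0.691% where the raw shares were 0.0336%, 0.169% and 1.09%. For miR-34a-5p, FGF minus NT was 0.45 in the adjusted table (limma, adjusted p = 0.875), against 1.87 in the raw counts.

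**Figure D4:**
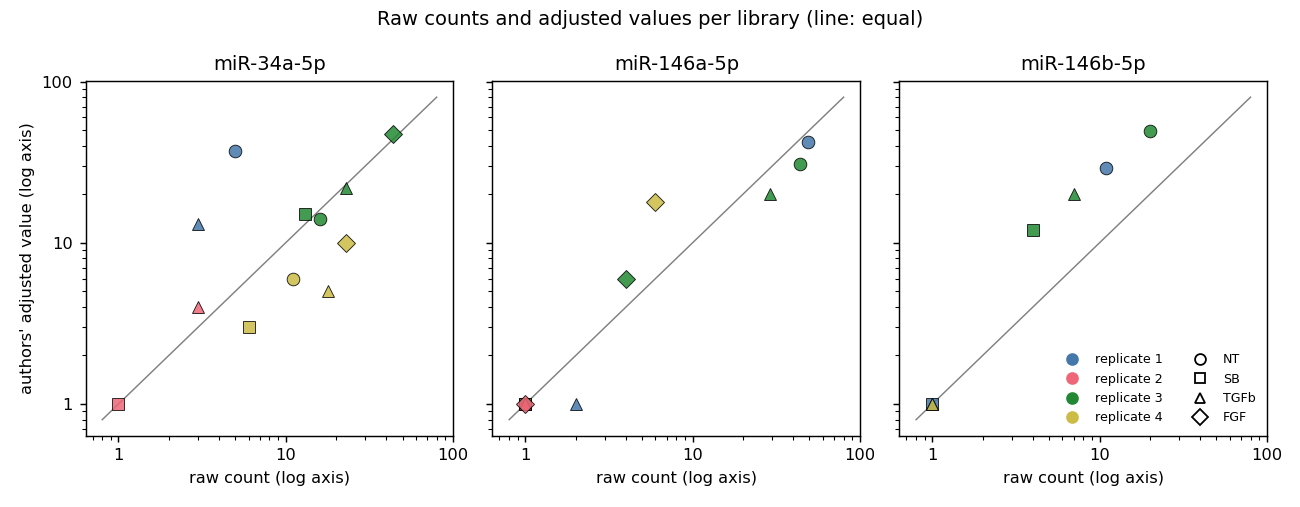
Authors' adjusted value (vertical, log axis) against raw count (horizontal, log axis) of each member in each library with a count; colour gives the replicate number, shape the group, and the line marks equal values. miR-34a-5p lies above the line in number 1 (5 to 37 in NT) and below it in number 4, and miR-146b-5p lies above it in number 3.

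Other miRNAs of the same pathways were looked at as lists. Of 11 miRNAs known as p53 targets or partners of p53, 8 had counts and 1 entered the filtered fit. None passed, higher or lower, in any of the 6 comparisons (0 of 1). Over all 47 miRNAs of that fit, 0% to 2.13% passed per comparison, so 0 calls in so short a list is no result about the list. The closest relatives of miR-34a were scarce: miR-34c-5p had 12 counts in 7 libraries, miR-34b-3p 5, miR-34c-3p 2 and miR-34b-5p 0. The tested one was miR-143-3p, a miRNA of smooth muscle and stromal cells whose processing p53 is known to promote. Its mean share was 2.25% in FGF and 0.318% in NT (log2 fold change 2.94, SE 1.32, edgeR adjusted p = 0.261).

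Of 10 miRNAs listed here under NF-κB, 8 had counts and 4 entered the filtered fit. None passed in either direction in any of the 6 comparisons, where 0% to 2.13% of all 47 miRNAs passed, so this too is no result about the list. The 4 were miR-21-5p, miR-125b-5p, miR-9-5p and miR-221-3p. Their median log2 fold change was 1.39 for FGF minus NT, against a median of −0.00111 over the 47 tested miRNAs, and 0.22 for SB minus NT against −0.04. It was 0.95 for TGFb minus NT (0.09 over all), 0.73 for TGFb minus SB (−0.08), 0.58 for FGF minus SB (−0.09) and −0.02 for TGFb minus FGF (−0.06). The 4 did not share a direction in FGF minus NT. miR-21-5p, widely induced in growth and injury, had a mean share of 5.88% in FGF and 1.02% in NT (2.42, SE 0.86, edgeR adjusted p = 0.148), and the value of miR-9-5p in that comparison was 2.59. miR-9-5p, which NF-κB induces in immune cells, took on average 0.196% of NT and 1.49% of SB libraries, a log2 difference of 3.03 (SE 1.29) with an edgeR adjusted p of 0.276. miR-125b-5p and miR-221-3p had log2 fold changes of 0.36 and −0.34 for FGF minus NT. miR-21-5p and miR-143-3p also belong to the epicardial or mesenchymal markers above. miR-155-5p, the miRNA most often paired with miR-146a in inflammation, had 34 counts in 8 libraries and did not enter the filtered fit.

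The miRNAs whose levels were most like those of each member were found from the correlation of log2 CPM over 14 libraries. For miR-34a-5p they were miR-320c (Pearson r = 0.61), miR-16-5p (0.60) and miR-221-3p (0.59), against a median of 0.09 over the 46 compared. For miR-146a-5p they were miR-99b-5p (0.59), miR-125b-5p (0.54) and miR-320d (0.48). For miR-146b-5p they were miR-483-3p (0.81), miR-483-5p (0.75) and miR-342-3p (0.65), and miR-146b-5p itself had a correlation of 0.61 with the log10 total of the library. The libraries, their depth and their scaling are common to all of these values, which are given as a description.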

How the data were processed

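Small RNA of EVs was precipitated with polyethylene glycol and made into libraries with the QIAseq miRNA kit, per the labels' protocols. The submitters' processing notes name GRCh38; the aligner, the miRNA annotation and the use of molecular identifiers are not given in the sources used here. The authors' deposited raw table holds counts per mature miRNA. Their deposited adjusted table is treated as a score, since its whole numbers are no longer counts and how they were made is not stated; 1084 of 2001 nonzero values differ from the raw table. Its 2 lines without a name and 18 columns of CPM and CPM means were left out.

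Groups and replicate numbers came from the labels. The 18 replicate pairs within groups each differed beyond sampling noise (chi-square test, 2000 resamples, p of 0.0005, the smallest they can give), so none was merged. Raw counts of the 14 libraries (115 to 14862 each) were fitted together with edgeR 4.0.16 in R 4.3.3 (TMM, robust quasi-likelihood), after filterByExpr with a minimum count of 10 (47 miRNAs). Members that did not pass, miR-146a-5p and miR-146b-5p, were tested in the same fit with no filter (447 miRNAs). P-values were adjusted by Benjamini-Hochberg over all miRNAs of the fit, with a threshold of 0.05. Standard errors are the absolute log2 fold change over the square root of F. The fits were tested on simulated data. Alternatives were RLE, library size only, DESeq2 1.42.0, no filter, a replicate block, the adjusted table in limma 3.58.1 (log2 CPM, prior count 2), libraries of at least 500 counts, only the groups compared, an exact permutation test of shares, and each library left out; library totals taken before the filter were added after seeing the data.

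The members and lists were chosen with earlier results of these data known. Named were the 3 members, their opposite arms, miRNAs of the same seed, the list members that entered the filtered fit or had the 2 highest shares of their list, and the 3 miRNAs of highest correlation with each member (prior count 2, members with counts in at least 7 libraries). miR-155-5p, the other miR-34 relatives and the marker miRNAs were named as list members of interest after their values were seen.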

Additional observations from a re-analysis of the deposited data

Results flagged for a closer look

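Shares were searched for a single library far from its group in SB and TGFb, the groups of 4 libraries (8 sets). For normal values of equal spread, chance alone marks about 1 set in 20. Shares that rest on few counts in libraries of unequal depth need not follow that rate. One library stood apart: miR-146a-5p in SB replicate 2 had a share of 0.559%, and the other 3 SB libraries had 0% to 0.0261%. The gap to the nearest of them was 0.953 times the range. That share rests on 1 of 179 counts, with a 95% Wilson interval of 0.0987% to 3.10%.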

How the results depend on the processing

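None of the 28 tests of the members passed an adjusted p of 0.05, and of 622 alternative fits 1 passed: miR-34a-5p in FGF against NT without NT replicate 4 (log2 fold change 3.13, edgeR adjusted p = 0.0496). Leaving out each library gave 1.24 to 3.13 there, and the other settings gave 0.45 to 2.19, with adjusted p from 0.152 to 0.875. The exact permutation tests among the 622 could hardly pass, since groups of 3 or 4 libraries allow few arrangements, and no miRNA passed in that setting. Of the 622, 148 give a p without a direction. Of the other 474, the direction was kept in 433 and turned in 41, all with values that did not pass. For each of these the cause was not tested.

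For SB minus NT, miR-34a-5p turned with RLE factors (0.028), the replicate block (0.12) and libraries of at least 500 counts (0.13), and ran from −0.70 to 1.22 over the libraries left out. For TGFb minus FGF it turned in the adjusted table (0.31). For FGF minus NT, miR-146a-5p turned with RLE factors (0.35), library size only (0.65), DESeq2 (0.48), the replicate block (0.10), the adjusted table (1.98) and shares (0.297 percentage points, exact permutation p = 0.3), and ran from −1.09 to 0.087 over the libraries left out. For TGFb minus FGF it turned with only the groups compared (0.036) and ran from −1.43 to 0.54. For SB minus NT, miR-146b-5p turned with DESeq2 (0.012) and shares (0.00347 points). For TGFb minus SB it turned with RLE factors (−0.25), library size only (−0.42), DESeq2 (−0.53), the adjusted table (−0.14) and shares (−0.0485 points), and ran from −0.63 to 0.99. The miR-146 sum turned in FGF minus NT with library size only (0.23), DESeq2 (0.00942), the adjusted table (1.36) and shares (0.201 points). In TGFb minus FGF it turned with RLE factors (−0.35), library size only (−0.72), DESeq2 (−0.42), the replicate block (−0.66), the adjusted table (−1.56) and shares (−0.271 points), and ran from −0.86 to 0.90.

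A shared replicate number was not treated as pairing libraries, because the labels do not say what it means. Same-numbered libraries were nonetheless alike. Their deviations correlated above 0.1 in 15 of 18 pairs (mean r = 0.307), and 10 of 14 libraries correlated best with their own number. Depth went partly with the number. Libraries numbered 2 held 115 to 231 counts, those numbered 3 held 3241 to 9462, and those numbered 1 held 345 to 14862. The part of depth in this likeness was not tested. With the replicate block, miR-34a-5p in FGF minus NT was 1.81 (edgeR unadjusted p = 0.0376, adjusted p = 0.152), and no call of a member changed. Calls over all miRNAs of the filtered fit ran, over the settings other than libraries left out, from 0 to 5 in the 4-group test (0 in the report), 0 to 3 in SB against NT (1), 0 to 2 in FGF against NT (1), 0 to 3 in TGFb against SB and against FGF (0 each) and 0 to 1 in FGF against SB (0). Leaving out 1 library gave 0 to 6 in the 4-group test, 0 to 7 in SB against NT, 0 to 9 in FGF against NT, 0 to 2 in TGFb against SB, 0 to 1 in TGFb against NT and against FGF, and 0 in FGF against SB. The 6, 7, 9 and 2 came without NT replicate 4. Mean shares moved by more than 1 SD in 4 of 104 alternatives. Depth limits the members with few counts: miR-146b-5p rests on 45.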
